A study of Mus musculus with 9 samples.

Results

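The 6 genes of a pair of T cell-attracting chemokine axes are described here in mouse ear skin: the receptor Cxcr3 with its ligands Cxcl9, Cxcl10 and Cxcl11, and the receptor Cxcr6 with its ligand Cxcl16. They were taken by symbol from a table of 25124 genes, and all 6 passed the expression filter that left 15704 genes. The samples are whole ear tissue of C57BL/6 mice. In 4 libraries the skin carried Staphylococcus epidermidis, a skin commensal, strain LM087, and the mice also received an anti-CTLA-4 antibody, an immune checkpoint inhibitor (labelled S. epi + anti-CTLA-4). In 5 libraries the mice received the same bacterium alone (S. epi). All 9 libraries share the bacterium, which was swabbed on every other day, and tissue was taken on day 8. Uncolonised skin and antibody alone were not analysed here. The sources used here give neither the dose nor clone of the antibody nor the age or sex of the mice. The labels number the replicates without naming animals, so p-values reflect only how far these samples spread, and some of that may be technical.

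CXCR3 is a G protein-coupled receptor of activated T cells and natural killer cells, and guides them toward tissue in which its ligands are made. CXCL9, CXCL10 and CXCL11 are induced by interferon gamma in macrophages, dendritic cells, keratinocytes and endothelium. C57BL/6 mice are known to carry a frameshift in Cxcl11, so that its transcript does not yield the functional chemokine. CXCL16 is unusual in being made as a membrane-anchored protein, which the protease ADAM10 can shed, and its receptor CXCR6 marks effector and tissue-resident T cells of skin.

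Values are TPM as deposited. The deposited TPM divided each gene's reads by its genomic span, introns included, and so whole read numbers per gene could be recovered (100% of low values came out within 0.1 of a whole number in every library, against 23.5% to 24.5% with the spans shuffled among genes). The reads of the listed genes came to between 10213779 and 13868660 per library. Intervals on read numbers cover counting error only. The markers of the labelled tissue were present in both groups, with Krt14, a basal keratin, at 3642 ± 274 TPM with anti-CTLA-4 and 3371 ± 435 TPM with the bacterium alone (SD, n = 4 and n = 5).

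The stretches of 250 bases before the start of Cxcl10 and Cxcl9 are shown because these 2 ligand genes are neighbours, varied widely between libraries, and are textbook interferon targets. They are RefSeq sequence of GRCm38.p6 (the build also called mm10), read on the minus strand, chr5:92348890-92349139 for Cxcl10 and chr5:92328080-92328329 for Cxcl9. Capitals mark matches, on either strand, to the interferon-stimulated response element core (GAAA, any 2 bases, GAAA), the AP-1 site TGANTCA, the NF-kappaB consensus and the CCAAT box CCAATCA.
Cxcl10: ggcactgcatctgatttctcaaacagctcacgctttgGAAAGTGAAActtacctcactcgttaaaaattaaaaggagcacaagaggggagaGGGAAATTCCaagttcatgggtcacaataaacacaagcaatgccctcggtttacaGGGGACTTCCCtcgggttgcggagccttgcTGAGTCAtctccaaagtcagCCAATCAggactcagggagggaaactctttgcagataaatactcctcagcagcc
Cxcl9: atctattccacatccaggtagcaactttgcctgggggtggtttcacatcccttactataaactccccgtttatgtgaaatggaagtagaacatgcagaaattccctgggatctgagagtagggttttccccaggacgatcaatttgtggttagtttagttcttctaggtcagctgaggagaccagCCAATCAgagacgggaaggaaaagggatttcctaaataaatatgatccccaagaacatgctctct

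In Cxcl10 the response element core lay at positions -213 to -204, where -1 is the last base before the start. The AP-1 match lay at -74 to -68. The NF-kappaB matches lay at -159 to -150 and, overlapping each other, at -104 to -95 and -103 to -94, the last on both strands. The CCAAT box stood at -54 to -48 in Cxcl10 and at -65 to -59 in Cxcl9, and was added to the search after the sequences had been read. Of 32851 RefSeq stretches of the same length, 2.98% held the response element core, 6.75% the AP-1 site, 7.25% the NF-kappaB consensus and 7.23% the CCAAT box. The gamma-activated site TTCNNNGAA (in 7.02% of stretches) and the T-box site TCACACCT (in 1.12%) matched in none of the 4 members with a sequence, and the stretches of Cxcr3 and Cxcr6 held none of the 6 motifs. These matches describe the letters in these windows only.

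The receptors rose and the ligands were not called. Of the 6 genes, 2 were higher with anti-CTLA-4 by limma at a Benjamini-Hochberg adjusted p under 0.05 over all genes tested, Cxcr3 and Cxcr6, and none was lower. Of all genes tested, 7.16% were called higher, 4.48% lower and 11.6% in either direction. Higher calls were 61.5% of all calls, but 49.8% with a common median, 47.9% with quantile normalization and 48.0% with totals that leave out the 50 most abundant genes. No library of one group reached into the range of the other for 2 of the 6, Cxcr3 and Cxcr6, against 14.4% of all genes tested (8.02% apart and higher with anti-CTLA-4, 6.39% apart and lower). The median log2 fold change was 0.69 over the 6 genes and -0.014 over all genes. Of the 6, 5 were above 0 in every alternative, and Cxcl11, at 0.0013, changed its sign in 10 of 20.

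Cxcr3 (mm10 chromosome X, 101731535 to 101734147, minus strand) had 7.04, 11.5, 9.54 and 8.02 TPM in anti-CTLA-4 replicates 1 to 4, against 1.75, 3.56, 2.65, 1.30 and 3.24 TPM in replicates 1 to 5 of the bacterium alone. Every anti-CTLA-4 library lay above every library of the bacterium alone. Cxcr3 averaged 9.03 ± 1.96 TPM with anti-CTLA-4 and 2.50 ± 0.961 TPM with the bacterium alone (SD, n = 4 and n = 5), a ratio of 3.61. The log2 fold change was 1.55 ± 0.22 (SE; limma adjusted p = 0.00372), and 0.478% of the genes tested had a larger one. On the scale of log2(TPM + 1) the change of a gene this low is understated. It was 1.88 with a pseudocount of 0.1 and 1.90 on the recovered reads.

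The reads behind Cxcr3 were few. They numbered 25 to 44 per library with anti-CTLA-4 and 5 to 16 with the bacterium alone, or 149 in all with anti-CTLA-4 and 51 with the bacterium alone. The nearest libraries were anti-CTLA-4 replicate 1, with 25 reads (95% exact Poisson interval 16.2 to 36.9), and replicate 2 of the bacterium alone, with 16 reads (interval 9.15 to 26.0). These 2 intervals overlap, while the means of the groups differ by more than the spread within them. Leaving out any 1 of the 9 libraries kept the call (largest limma adjusted p = 0.0148).

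Cxcr6 (mm10 chromosome 9, 123806477 to 123811754, plus strand) had 21.6, 25.2, 34.0 and 23.5 TPM in the 4 anti-CTLA-4 replicates, against 16.7, 16.0, 16.1, 13.9 and 14.7 TPM in the 5 replicates of the bacterium alone. The groups again did not overlap, and replicate 3 was the highest of the anti-CTLA-4 libraries. Cxcr6 averaged 26.1 ± 5.47 TPM with anti-CTLA-4 and 15.5 ± 1.13 TPM with the bacterium alone (SD, n = 4 and n = 5), a ratio of 1.68 and a log2 fold change of 0.70 ± 0.12 (SE; limma adjusted p = 0.00754). This call too was kept without any 1 library (largest limma adjusted p = 0.0223). The read numbers were 155 to 302 per library with anti-CTLA-4 and 108 to 145 with the bacterium alone. Cxcr6 lies within the span of Fyco1 on the other strand, with no exon base in common. In whole tissue RNA, a change in the number of receptor-bearing cells and a change in RNA per cell cannot be told apart.

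**Figure D1:**
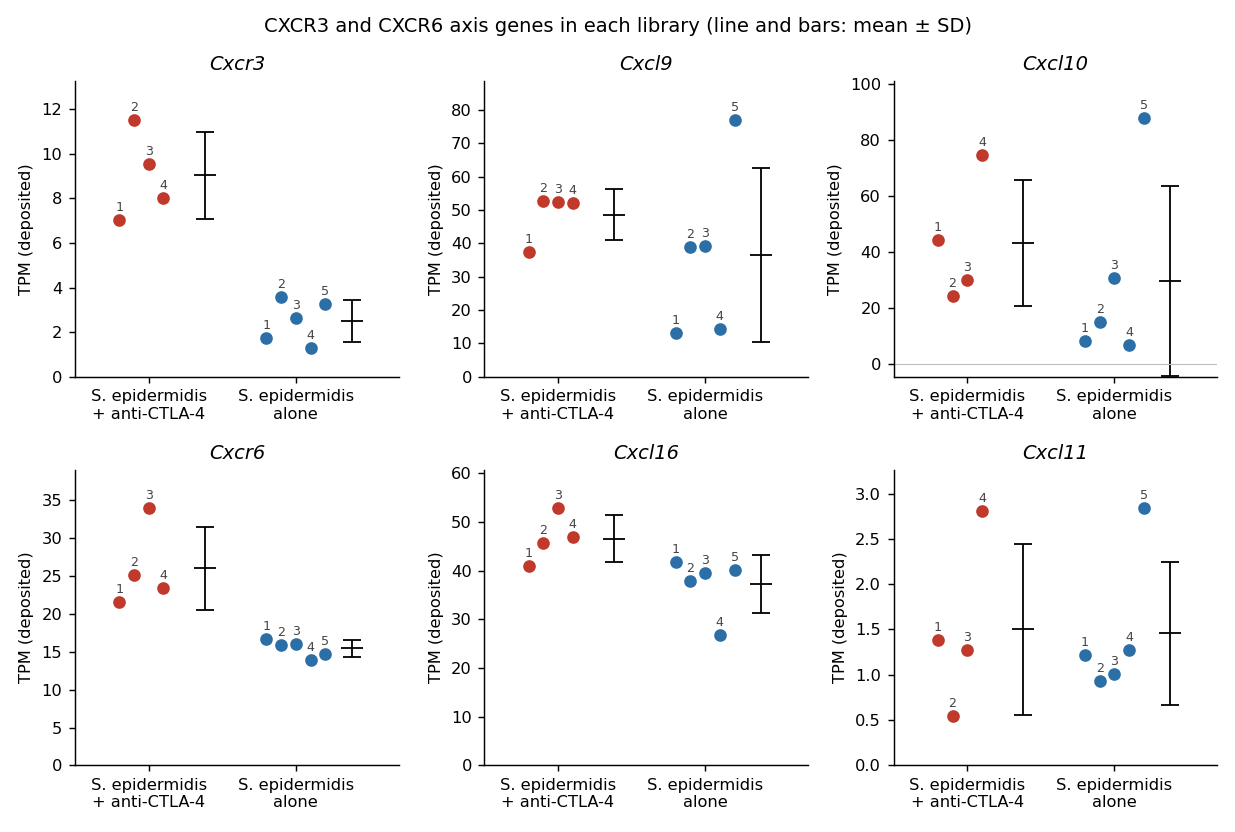
Deposited TPM of the 6 genes (y axis) in each library, anti-CTLA-4 on the left and the bacterium alone on the right of each panel; points are libraries with their replicate number, and the line and bars beside them are the mean ± SD. The groups are apart for Cxcr3 and Cxcr6, while replicate 5 of the bacterium alone, at 77.1 TPM of Cxcl9, 87.8 of Cxcl10 and 2.84 of Cxcl11, is above every anti-CTLA-4 library in those 3 panels.

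Cxcl9 (mm10 chromosome 5, 92321331 to 92328079, minus strand) had 37.3, 52.5, 52.5 and 52.2 TPM in the anti-CTLA-4 replicates, against 13.2, 38.8, 39.2, 14.2 and 77.1 TPM in those of the bacterium alone. The groups overlapped. In all, 3 of the anti-CTLA-4 libraries lay within 1 TPM of each other, whereas the highest library of the bacterium alone held 5.83 times the lowest. The means were 48.6 ± 7.58 TPM with anti-CTLA-4 and 36.5 ± 26.0 TPM with the bacterium alone (SD, n = 4 and n = 5). The log2 fold change of 0.68 had a 95% confidence interval of -0.37 to 1.73 (limma adjusted p = 0.397).

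Cxcl10 (mm10 chromosome 5, 92346639 to 92348889, minus strand) had 44.1, 24.0, 29.8 and 74.4 TPM in the anti-CTLA-4 replicates, against 8.11, 15.0, 30.5, 6.64 and 87.8 TPM in those of the bacterium alone. Its highest library held 3.10 times its lowest with anti-CTLA-4 and 13.2 times its lowest with the bacterium alone, where none of the other 5 genes spread as far. The log2 fold change was 1.02, with a 95% confidence interval of -0.52 to 2.56 (limma adjusted p = 0.388).

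Among all 9 libraries, replicate 5 of the bacterium alone was the one with the highest Cxcl9, Cxcl10 and Cxcl11, but not the highest Cxcl16 or receptors. It also held 2.04 TPM of Ifng, the gene of interferon gamma, against 1.21, 0.988, 1.22 and 1.48 TPM in the anti-CTLA-4 replicates and 0.134, 0.120, 0.260 and 0.280 TPM in the other 4 of the bacterium alone. Ifng rests on 38 reads with anti-CTLA-4 and 20 with the bacterium alone, and was not called (limma adjusted p = 0.192). It was singled out after its values were seen. Without replicate 5 of the bacterium alone, the log2 fold change was 1.02 for Cxcl9 (limma adjusted p = 0.117) and 1.56 for Cxcl10 (limma adjusted p = 0.0789), and the means of the remaining 4 libraries were 26.4 ± 14.6 TPM for Cxcl9 and 15.0 ± 10.9 TPM for Cxcl10. Leaving out any other library gave no call either (largest limma adjusted p = 0.614 for Cxcl9 and 0.622 for Cxcl10).

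Cxcl11 (mm10 chromosome 5, 92359545 to 92363277, minus strand) was close to the limit of detection. It had 1.38, 0.550, 1.27 and 2.81 TPM in the anti-CTLA-4 replicates, against 1.22, 0.934, 1.01, 1.27 and 2.84 TPM in those of the bacterium alone, from 3 to 19 reads per library with anti-CTLA-4 and 6 to 15 with the bacterium alone. The lowest count, 3 reads in anti-CTLA-4 replicate 2, has a 95% exact Poisson interval of 0.619 to 8.77 reads. In each group 1 library stood above the rest, anti-CTLA-4 replicate 4 and replicate 5 of the bacterium alone, the same libraries that were highest for Cxcl10. The log2 fold change was 0.0013 with a 95% confidence interval of -0.61 to 0.61 (limma adjusted p = 0.998), and its sign changed with the scaling and with the libraries in the fit. Cxcl10 and Cxcl11 lie within the span of Art3 on the other strand, with no exon base in common.

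Cxcl16 (mm10 chromosome 11, 70454389 to 70459984, minus strand) varied least among the ligands. It had 41.0, 45.6, 52.8 and 47.0 TPM in the anti-CTLA-4 replicates, against 41.8, 37.9, 39.5, 26.8 and 40.1 TPM in those of the bacterium alone. In 3 of the 4 anti-CTLA-4 libraries Cxcl16 was above every library of the bacterium alone, and the means were 46.6 ± 4.87 TPM with anti-CTLA-4 and 37.2 ± 5.98 TPM with the bacterium alone (SD, n = 4 and n = 5). The log2 fold change was 0.33, with a 95% confidence interval of 0.036 to 0.62 before adjustment, and was not called over all genes (limma adjusted p = 0.142). By the exact two-sided permutation test of this gene on its own p was 0.0317, close to the unadjusted limma p of 0.0314. Of the exon bases of Cxcl16, 20.5% overlap Zmynd15 on the other strand, and the sources used here do not say how reads there were assigned, so the values of both genes are uncertain. Zmynd15 had 12.7 ± 1.45 TPM with anti-CTLA-4 and 10.1 ± 1.40 TPM with the bacterium alone.

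Levels of different genes were compared as RPKM computed from the recovered reads, the longest GENCODE M21 transcript and the listed reads of each library, since the deposited TPM uses the genomic span. The order of the means was the same in both groups: Cxcl9, Cxcl16, Cxcl10, Cxcr6, Cxcr3 and Cxcl11. On this scale Cxcl9 stood at 14.6 ± 2.08 with anti-CTLA-4 and 10.9 ± 7.96 with the bacterium alone, and Cxcl16 at 12.5 ± 0.888 with anti-CTLA-4 and 9.76 ± 1.82 with the bacterium alone. Cxcl10 stood at 9.31 ± 5.00 with anti-CTLA-4 and 6.32 ± 7.35 with the bacterium alone. Of the receptors, Cxcr6 stood at 9.26 ± 1.58 with anti-CTLA-4 and 5.40 ± 0.511 with the bacterium alone, and Cxcr3 at 1.76 ± 0.367 with anti-CTLA-4 and 0.478 ± 0.189 with the bacterium alone. Cxcl11 was the lowest, at 0.191 ± 0.122 with anti-CTLA-4 and 0.181 ± 0.102 with the bacterium alone (SD, n = 4 and n = 5 throughout). The first 4 genes overlapped with their neighbours in the order in both groups. Cxcr6 was above Cxcr3 in all 9 libraries, and Cxcr3 above Cxcl11 in all 9, though the ranges of Cxcr3 and Cxcl11 overlapped with the bacterium alone. The sources used here do not say whether reads were counted over exons or over the whole span.

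**Figure D2:**
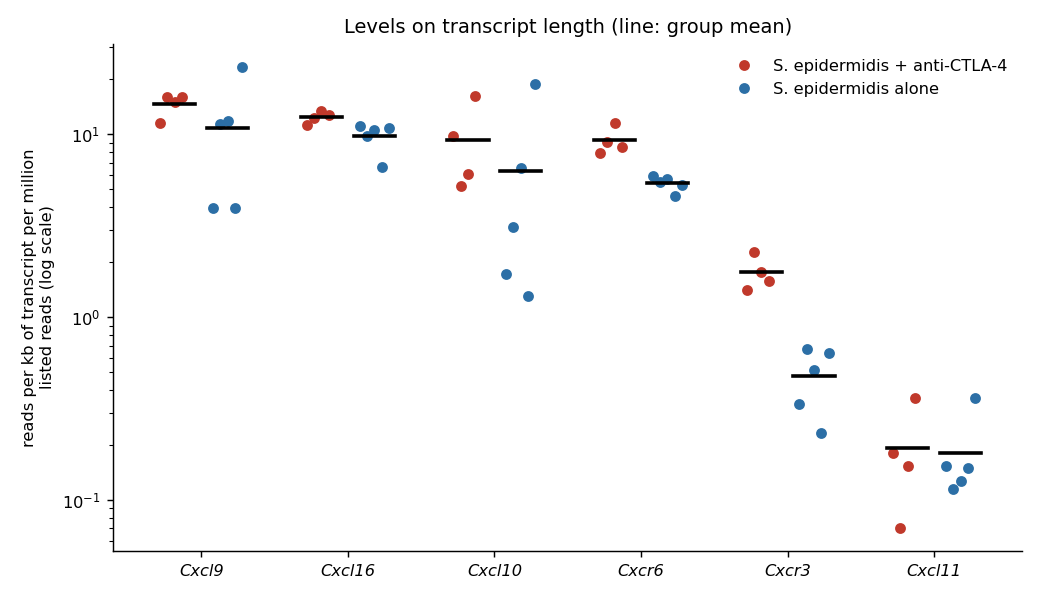
Level of each gene as RPKM from recovered reads over the longest transcript (y axis, log scale), one point per library, anti-CTLA-4 left of the bacterium alone, with a line at each group mean. Cxcl9, Cxcl16, Cxcl10 and Cxcr6 lie close together at group means of 5.40 to 14.6, Cxcr3 below them and Cxcl11 lowest in both groups.

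Whether members responded differently was tested on the difference of log2(TPM + 1) within each library, for 7 differences, by exact two-sided permutation over the 126 splits of 9 libraries into 5 and 4, with p-values adjusted over the 7. The smallest p this test can give is 0.0159. Cxcr3 rose more than Cxcr6. Cxcr3 minus Cxcr6 was -1.43 ± 0.28 with anti-CTLA-4 and -2.28 ± 0.40 with the bacterium alone (SD, n = 4 and n = 5), a difference of 0.85 (exact p = 0.0159, adjusted p = 0.0278), and the groups did not overlap. Cxcl16 minus Cxcr6 was 0.83 ± 0.15 with anti-CTLA-4 and 1.20 ± 0.18 with the bacterium alone, a difference of -0.37 (exact p = 0.0317, adjusted p = 0.0444). The call for Cxcl16 minus Cxcr6 ended without any 1 library other than replicate 4 of the bacterium alone (adjusted p between 0.050 and 0.10), with differences of -0.42 to -0.30. The call for Cxcr3 minus Cxcr6 ended without any 1 anti-CTLA-4 library (adjusted p between 0.050 and 0.0625), where the exact p was the smallest that 5 against 3 allows, 0.0357. Cxcl9 minus Cxcl10 was 0.29 ± 0.78 with anti-CTLA-4 and 0.62 ± 0.58 with the bacterium alone, a difference of -0.34 that was within the spread (exact p = 0.476, adjusted p = 0.524).

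T cell markers moved with the receptors. Of 16 T cell genes tested, 12 rose (7 at a minimum of 5 TPM, where fewer genes were tested), and their mean log2(TPM + 1) was 2.75 to 3.13 per library with anti-CTLA-4 and 1.65 to 2.01 with the bacterium alone. Of 6 tested genes of the natural killer cell list (of 8), 4 rose (Gzma, Gzmb, Nkg7 and Klrk1), while Klrd1 and Prf1 were not called. The mean of the 6 was 3.04 to 3.56 with anti-CTLA-4 and 1.95 to 2.47 with the bacterium alone. Ncr1 and Klrb1c did not pass the expression filter. Ncr1 had 0.489 ± 0.0505 TPM with anti-CTLA-4 and 0.479 ± 0.379 TPM with the bacterium alone. Klrb1c had 0.411 ± 0.162 TPM with anti-CTLA-4 and 0.320 ± 0.218 TPM with the bacterium alone. Whether the 4 genes of this list that rose came from natural killer cells or from T cells was not tested. Among the genes that rose, Cd6 in the first list and Gzma in the second passed the expression filter only through the anti-CTLA-4 group. Cd8b1 owed its pass to that group too, with 0.222, 1.03, 0.599, 0.139 and 0.720 TPM in the replicates of the bacterium alone. Cxcr3 minus the T cell list mean was 0.40 ± 0.20 with anti-CTLA-4 and -0.13 ± 0.28 with the bacterium alone, a difference of 0.54 (exact p = 0.0159, adjusted p = 0.0278). Cxcr6 minus the same mean was 1.83 ± 0.13 with anti-CTLA-4 and 2.14 ± 0.13 with the bacterium alone, a difference of -0.31 (exact p = 0.0159, adjusted p = 0.0278). For Cxcr6 the groups nearly touched, with the highest anti-CTLA-4 library at 1.9984 and the lowest of the bacterium alone at 1.9998. Both differences are from the list mean only, and their calls ended without any 1 anti-CTLA-4 library (adjusted p between 0.050 and 0.0625). The exact p was then the smallest that 5 against 3 allows, 0.0357, so the loss of these calls does not show weaker differences. The log2 fold changes of the list ran from 0.23 for Cd247 to 2.16 for Cd8a, a range that holds both receptors. Cd8a, Cd8b1 and Cd2, at 2.16, 1.81 and 1.64, lay above Cxcr3 at 1.55, and Cd3g, Cd4, Cd5 and Cd247, at 0.46, 0.40, 0.30 and 0.23, below Cxcr6 at 0.70. With a pseudocount of 0.1 the difference for Cxcr6 was -0.59.

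Monocyte and macrophage genes, which mark candidate sources of CXCL9 and CXCL16, also moved with the antibody: 9 of 12 rose, with a mean log2(TPM + 1) of 4.71 to 5.18 with anti-CTLA-4 and 3.57 to 4.28 with the bacterium alone. Cxcl16 minus this list mean was 0.55 ± 0.26 with anti-CTLA-4 and 1.25 ± 0.36 with the bacterium alone, a difference of -0.69 (exact p = 0.0159, adjusted p = 0.0278). Its call likewise ended without any 1 anti-CTLA-4 library, where the exact p was again the smallest that 5 against 3 allows, 0.0357. The groups came close, at most 0.874 with anti-CTLA-4 and at least 0.911 with the bacterium alone. This difference too is from the list mean only. The log2 fold changes of the list ran from 0.079 for Mertk to 2.16 for Ly6c2, and only Mertk lay below Cxcl16 at 0.33. Cxcl9 minus the list mean was 0.60 ± 0.34 with anti-CTLA-4 and 0.94 ± 0.86 with the bacterium alone (exact p = 0.524, adjusted p = 0.524). Of other cell types, 1 of 10 dendritic and Langerhans cell genes rose (Batf3), 1 of 8 keratinocyte genes rose (Krt1) and 2 fell (Dsg1a and Col17a1), and 2 of 8 skeletal muscle genes (Actn3 and Pvalb) and 2 of 6 tested hair follicle genes (Krt73 and Msx2) fell. In the 9 fits without 1 library, Dsg1a and Krt73 were called every time, while the call ended in 4 fits for Krt1 and Actn3, in 6 for Col17a1, Pvalb and Msx2, and in 7 for Batf3. Of 6 fibroblast and 6 vascular endothelial genes limma called 0, with 1 and 2 at an unadjusted p under 0.05 and 1 and 2 called higher on the recovered reads. The unadjusted limma p was under 0.05 for 6 dendritic (Cd207 and Epcam lower), 6 keratinocyte, 5 muscle and 2 hair follicle genes. On the recovered reads, 2 dendritic and 1 keratinocyte genes were called higher, and 4 keratinocyte, 5 muscle and 2 hair follicle genes lower. The median log2 fold change of the muscle genes was -0.51, with 0 above 0. Beyond these differences, the part of these cell types in the members' values was not tested.

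**Figure D3:**
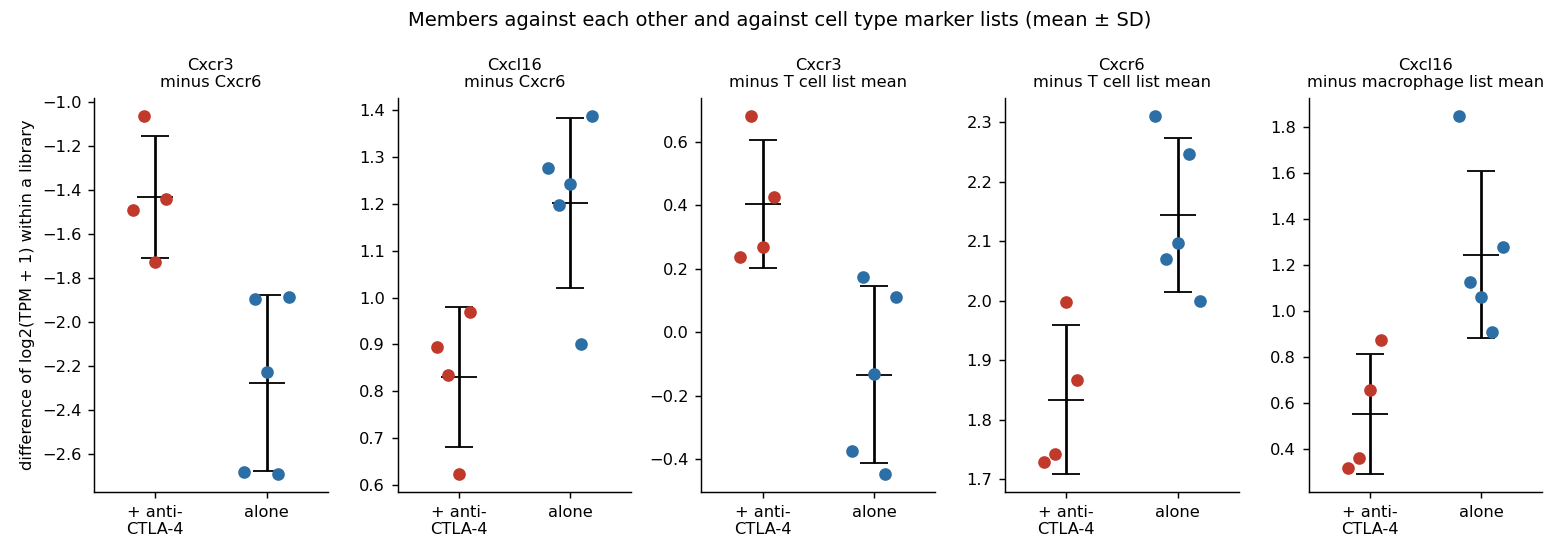
Difference of log2(TPM + 1) within each library (y axis, its own scale in each panel) between members or between a member and the mean of a marker list, anti-CTLA-4 left of the bacterium alone; points are libraries and bars the mean ± SD. The groups do not overlap for Cxcr3 minus Cxcr6 (0.85 higher with anti-CTLA-4), for either receptor minus the T cell list, or for Cxcl16 minus the macrophage list. They nearly touch for Cxcr6 minus the T cell list, with the highest anti-CTLA-4 library at 1.9984 and the lowest of the bacterium alone at 1.9998.

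Upstream of the CXCR3 ligands, 3 of 9 genes of interferon-gamma signalling rose with anti-CTLA-4: Irf8, a transcription factor of myeloid cells (13.3 ± 2.36 TPM with anti-CTLA-4 and 8.10 ± 1.17 TPM with the bacterium alone), the kinase gene Jak2 (16.7 ± 1.31 TPM with anti-CTLA-4 and 13.0 ± 0.908 TPM with the bacterium alone), and the receptor chain Ifngr1 (70.4 ± 5.39 TPM with anti-CTLA-4 and 52.0 ± 6.85 TPM with the bacterium alone). Ifngr1 was no longer called when replicate 1, 3 or 4 of anti-CTLA-4 was left out (largest limma adjusted p = 0.0623), and on the recovered reads 6 of the 9 were called. Of 16 tested interferon-gamma-induced genes (of 18 in the list), 4 rose: Ciita, the master activator of MHC class II genes (17.2 ± 2.83 TPM with anti-CTLA-4 and 10.3 ± 1.80 TPM with the bacterium alone), the immunoproteasome subunits Psmb8 (142.7 ± 20.0 TPM with anti-CTLA-4 and 62.6 ± 23.6 TPM with the bacterium alone) and Psmb9 (28.9 ± 4.41 TPM with anti-CTLA-4 and 15.6 ± 5.24 TPM with the bacterium alone), and the peptide transporter Tap1 (66.4 ± 8.57 TPM with anti-CTLA-4 and 40.4 ± 11.5 TPM with the bacterium alone). Without anti-CTLA-4 replicate 2, 3 or 4, or without replicate 1, 2 or 4 of the bacterium alone, 2 genes of the list were called; without replicate 5 of the bacterium alone 6 were, and on the recovered reads 7. The median log2 fold change was 0.44 in the first list and 0.74 in the second.

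Genes that process or scavenge the chemokines were not called by limma on log2(TPM + 1). They comprise the sheddase genes Adam10 (15.0 ± 1.42 TPM with anti-CTLA-4 and 13.4 ± 0.298 TPM with the bacterium alone) and Adam17 (18.6 ± 0.611 TPM with anti-CTLA-4 and 17.3 ± 0.562 TPM with the bacterium alone), its regulator Rhbdf2 (17.9 ± 1.97 TPM with anti-CTLA-4 and 19.7 ± 1.08 TPM with the bacterium alone), and Dpp4, whose protease trims CXCR3 ligands (3.01 ± 0.675 TPM with anti-CTLA-4 and 2.46 ± 0.299 TPM with the bacterium alone). The atypical receptor genes Ackr1, Ackr2, Ackr3 and Ackr4 had log2 fold changes of 0.12, -0.053, -0.011 and -0.13, and the heparan sulfate carriers Sdc1 and Sdc4 of -0.12 and -0.097. limma called 0 of these 10 genes, with 0 at an unadjusted p under 0.05. On the recovered reads 2 were called higher, Adam10 and Adam17 (limma-voom adjusted p = 0.0263 and 0.0399).

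Of 9 tested genes of type 1 and resident lymphocytes (11 of the 12 listed were in the table), 5 rose and 1 fell. The interleukin-18 receptor chains Il18r1 (8.83 ± 1.66 TPM with anti-CTLA-4, against 3.10 ± 0.632 TPM with the bacterium alone) and Il18rap (10.1 ± 1.88 TPM with anti-CTLA-4 and 3.15 ± 1.60 TPM with the bacterium alone) rose, as did the transcription factors Stat4 (1.44 ± 0.217 TPM with anti-CTLA-4 and 0.410 ± 0.137 TPM with the bacterium alone) and Runx3 (7.22 ± 0.692 TPM with anti-CTLA-4 and 4.77 ± 0.370 TPM with the bacterium alone). Stat4 passed the expression filter only through the anti-CTLA-4 group, being under 1 TPM in every library of the bacterium alone, and could be refitted only in the 5 fits that kept all 4 anti-CTLA-4 libraries. Prdm1, a repressor also expressed in epidermis, fell to 17.7 ± 2.72 TPM, against 23.8 ± 2.53 TPM with the bacterium alone, but its call ended in 7 of the 9 fits without 1 library. Without anti-CTLA-4 replicate 2 or 3, 3 genes of this list were called higher.

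Of 12 genes of chemokine receptor signalling and adhesion, 9 rose and 1 fell. The integrin chain Itgal, part of LFA-1, reached 8.28 ± 1.31 TPM with anti-CTLA-4, against 2.95 ± 0.487 TPM with the bacterium alone. The small GTPase gene Rac2 (16.2 ± 2.85 TPM with anti-CTLA-4 and 5.25 ± 1.00 TPM with the bacterium alone) and Dock2, which activates Rac in leukocytes (6.02 ± 0.843 TPM with anti-CTLA-4 and 2.79 ± 0.311 TPM with the bacterium alone), rose too. So did Gnai2, the G protein subunit that carries signals of chemokine receptors in lymphocytes (64.3 ± 2.57 TPM with anti-CTLA-4 and 44.1 ± 3.29 TPM with the bacterium alone). The related Gnai3 fell, with 36.4 ± 2.23 TPM with anti-CTLA-4 and 42.0 ± 1.29 TPM with the bacterium alone, and its call ended in 8 of the 9 fits without 1 library.

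Among 11 other receptors of T cell homing, 5 rose. Ccr8, a receptor of skin-homing T cells, had 2.10 ± 1.10 TPM with anti-CTLA-4 and 0.377 ± 0.216 TPM with the bacterium alone, from 38 reads with the antibody and 8 without it. It too passed the expression filter only through the anti-CTLA-4 group, so its call is conditional on being high there. S1pr1, which guides lymphocyte exit, had 31.5 ± 2.97 TPM with anti-CTLA-4 and 23.6 ± 2.55 TPM with the bacterium alone. Without 1 anti-CTLA-4 library Ccr8 was not tested. The call of S1pr1 ended without anti-CTLA-4 replicate 2 or 3. Of the receptors, 2 were called with the replicate number as a block or a minimum of 5 TPM.

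Of 12 tested ligands of those receptors (of 14), 3 rose: Ccl3 (10.4 ± 4.97 TPM with anti-CTLA-4, against 1.48 ± 1.84 TPM with the bacterium alone), Ccl4 (8.73 ± 2.86 TPM with anti-CTLA-4 and 1.87 ± 2.22 TPM with the bacterium alone) and Cxcl12 (84.4 ± 7.16 TPM with anti-CTLA-4 and 51.0 ± 8.83 TPM with the bacterium alone). Leaving out replicate 2 of anti-CTLA-4 ended the call of Ccl4 (limma adjusted p = 0.0545). Ccl3 and Ccl4 had 17 and 29 reads with the bacterium alone. The median log2 fold change was 0.41 over the other receptors and 0.37 over the other ligands.

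**Figure D4:**
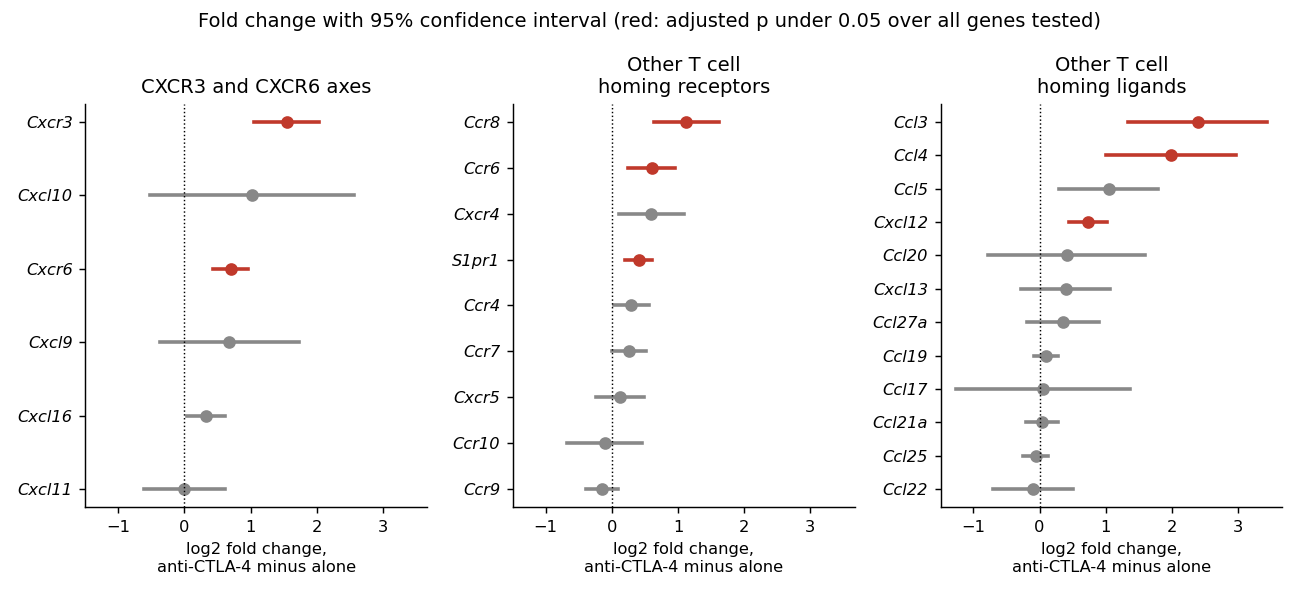
log2 fold change on log2(TPM + 1), anti-CTLA-4 minus the bacterium alone (x axis), with 95% confidence intervals before adjustment, for the 6 genes, for 9 of the 11 other T cell homing receptors and for the 12 tested ligands; red marks a limma adjusted p under 0.05 over all genes tested. Cxcr3 and Cxcr6 are called at 1.55 and 0.70, and the wide intervals of Cxcl9 and Cxcl10 include 0.

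Chemokines and receptors of myeloid cells also moved. Of 6 tested genes of the neutrophil-attracting set (of 7), 4 rose: Cxcl2, Cxcl3, Cxcl5 and the receptor Cxcr2, with log2 fold changes of 3.32, 2.19, 2.32 and 0.81. Cxcl3 had 74 reads with anti-CTLA-4 and 9 with the bacterium alone, where it averaged 0.630 ± 1.05 TPM. It owed its pass of the expression filter to the anti-CTLA-4 group. Cxcl2 and Cxcl5 had 58 and 33 reads with the bacterium alone. The call of Cxcr2 ended without any 1 anti-CTLA-4 library and without replicate 1 or 2 of the bacterium alone. Of 10 genes of the monocyte-attracting set 6 rose, among them Ccl6, Ccl9, Ccr2 and Ccr1, with log2 fold changes of 1.55, 1.31, 1.46 and 2.00. The median log2 fold change was 1.50 in the neutrophil set and 1.39 in the monocyte set. Some of these chemokine genes resemble each other closely, and their values are uncertain to the extent that reads match more than 1 of them.

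The genes most like each member were sought among all tested genes (unnamed genes, microRNAs and small nucleolar RNAs left out), by Pearson's r of the deviations of log2(TPM + 1) from the group means over the 9 libraries. The 3 largest of so many are high by selection, and no p is given. For Cxcr3 they were Cd8b1, the CD8 beta chain (r = 0.95, Spearman's rho = 0.85), the lymphocyte receptor Slamf6 (r = 0.95, rho = 0.90) and the lymphocyte adaptor Lax1 (r = 0.93, rho = 0.83). Their log2 fold changes were 1.81, 0.96 and 0.80, all called, but Slamf6 passed the expression filter only through the anti-CTLA-4 group. Cd8b1 reached 1 TPM with the bacterium alone only in replicate 2 and owed its pass to the same group. For Cxcl9 they were the interferon-inducible Ifi209 (r = 0.97) and Ifi204 (r = 0.96), which are close relatives and so uncertain, and the arginase gene Arg1 (r = 0.95).

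For Cxcl10 they were Mtfr2 (r = 0.99), the co-stimulatory receptor Cd40 (r = 0.97) and the interferon-stimulated Oasl2 (r = 0.96). For Cxcl11 they were the interleukin-15 receptor chain Il15ra (r = 0.97), Ctps (r = 0.96) and Kcnab3 (r = 0.95). For Cxcl16 they were Tdh (r = 0.96), the overlapping Zmynd15 (r = 0.96) and Adh6a (r = 0.94). For Cxcr6 they were Zfp385a (r = 0.95), Cep19 (r = 0.94) and Aspg (r = 0.94), none of which is in a T cell list used here. Without replicate 5 of the bacterium alone these values of r were between 0.896, that of Arg1, and 0.979, that of Mtfr2.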

How the data were processed

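RNA of 9 ear skin libraries was sequenced, and the authors deposited TPM per gene, per the file headers. The tools DESeq2, HOMER and STAR and the build mm10 are named, per the submitters' processing notes, without version or role. TPM multiplied by the Length column (end minus start, in 99.2% of genes) gave whole multiples of 1 number per library, so whole reads were recovered (tolerance 0.1, spans under 20000 bases, up to 10 reads). The listed genes summed to 696393 to 728933 TPM per library. Of that sum, Rn45s and Mir6236 together held from 30.6% (anti-CTLA-4 replicate 3) to 40.2% (anti-CTLA-4 replicate 1). The TPM of every other gene depends on that share, whose effect was not tested on its own. With totals that leave out the 50 most abundant genes, no member's limma call changed. Groups and replicate numbers came from the titles.

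The filter kept genes that reached 1 TPM in 4 or more libraries. The test was limma 3.58.1 (R 4.3.3) on log2(TPM + 1), with variances following the mean, no covariate, two-sided, adjusted by Benjamini-Hochberg over 15704 genes, threshold 0.05. All fold changes are anti-CTLA-4 minus the bacterium alone on that scale unless stated. Differences within a library used exact permutation (scipy 1.17.1). Named genes are the 6 members, up to 4 called genes with the smallest p of each pathway list (all genes where 2 or fewer were called), and the 3 most alike genes per member; the marker genes, Ifng, Prdm1 and Gnai3 were named after their values were seen. The members and lists were chosen with earlier results of these data known. Promoter sequences were available for 4 of the 6 members. The fit on recovered reads (limma with voom weights) was added after the data were seen. Over all genes limma called 1124 higher and 704 lower. Some genes that this rule selects are not reported here.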

Additional observations from a re-analysis of the deposited data

Results flagged for a closer look

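A library of 4 or 5 was marked where its gap to the nearest other library was a large share of the group's range (Dixon's test at 95%). Chance marks about 1 in 20 groups, and 26 groups of values were checked. Cxcl9 was lowest in anti-CTLA-4 replicate 1, at 37.3 TPM against 52.2 to 52.5 TPM in the other 3. This flag rests on deposited TPM: as RPKM, anti-CTLA-4 replicates 1 to 4 stood at 11.6, 16.0, 15.0 and 15.9. Cxcl11 was highest in replicate 5 of the bacterium alone, at 2.84 TPM against 0.934 to 1.27 TPM in the other 4. Cxcl16 was lowest in replicate 4 of the bacterium alone, at 26.8 TPM against 37.9 to 41.8 TPM in the other 4.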

How the results depend on the processing

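Cxcr3 and Cxcr6 kept their direction and their call, and Cxcl9 and Cxcl10 stayed without one, under all 21 alternatives (20 limma fits and the exact test of the single gene), with log2 fold changes of 1.41 to 1.90, 0.57 to 0.78, 0.40 to 1.02 and 0.67 to 1.56. Cxcl16 ranged from 0.22 to 0.39 and passed only the exact permutation test of the single gene (0.33, exact p = 0.0317). That p is not adjusted over genes, and the unadjusted limma p was 0.0314. The sign of Cxcl11 changed with a pseudocount of 0.1 (-0.039) or 0.5 (-0.010), a common median (-0.0090), quantile normalization (-0.0085) or a total without the 50 most abundant genes (-0.015), and between -0.23 and 0.21 when 1 library was left out; it rests on 3 to 19 reads per library. No value could be given for it at a minimum of 5 TPM.

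The number of genes called over the whole table, 1828, was 2743 with quantile normalization and 2972 on the recovered reads, and 1190 to 1763 without 1 library (1190 without replicate 2 of the bacterium alone). The share of calls that were higher was 61.5%, against 49.8% with a common median, 47.9% with quantile normalization and 48.0% without the 50 most abundant genes. The cause was not tested.

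Same-numbered libraries did not deviate together (correlations of -0.093 to 0.018). The labels do not say whether the numbers pair libraries, and such correlations cannot exclude it. With the replicate number as a block, 681 genes were called and no member's call changed. Replicate 5 of the bacterium alone has no counterpart, so the block fit takes no fold change from it. Its log2 fold changes, such as 1.02 for Cxcl9 and 1.56 for Cxcl10, equal those without that library. For the within-library differences the block leaves 4 pairs, whose smallest possible p is 0.125, so no call could be made: the values were 0.94 (Cxcr3 minus Cxcr6), -0.32 (Cxcl16 minus Cxcr6), 0.60 and -0.35 (Cxcr3 and Cxcr6 minus T cell genes) and -0.69 (Cxcl16 minus macrophage genes). Without 1 library these were 0.72 to 0.95, -0.45 to -0.30, 0.44 to 0.61, -0.37 to -0.27 and -0.80 to -0.54; all of these calls ended without any 1 anti-CTLA-4 library, and that for Cxcl16 minus Cxcr6 also without replicate 1, 2, 3 or 5 of the bacterium alone. The smallest exact p is then 0.0286 or 0.0357, and the adjusted p lay between 0.040 and 0.0625, or up to 0.10 for Cxcl16 minus Cxcr6. Without 1 anti-CTLA-4 library, the calls other than Cxcl16 minus Cxcr6 ended with the exact p at its smallest, 0.0357. Their loss therefore does not show weaker differences.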
